A study of Homo sapiens with 5 samples.

Results

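The genes described here are 10 regulators of the passage from G1 into S phase of the cell cycle, in SW480 cells with and without knockdown of AKAP12. They were taken by name as the G1 cyclins CCND1, CCND2, CCND3, CCNE1 and CCNE2, the kinases CDK2, CDK4 and CDK6, the kinase inhibitor CDKN1B and the retinoblastoma gene RB1. All 10 were among the 26485 genes of the count files, and all 10 were among the 14536 genes that passed the filter on low counts. Each gene is described by its level in every library, and AKAP12 knockdown is compared with control.

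SW480 is an established cell line from a human colorectal adenocarcinoma. Per the labels' protocols, cells of both groups expressed dCas9-KRAB. This protein is a Cas9 without nuclease activity joined to the KRAB repressor domain, and it represses the gene to which its guide RNA directs it (CRISPR interference). The AKAP12 knockdown group had 3 libraries of cells transduced with guide RNA against AKAP12, and the control group had 2 libraries of cells transduced with control guides. The titles and 1 label field call the same groups shAKAP12 and shControl, so the labels name both CRISPR interference and short hairpin RNA, and the protocol is followed here. RNA was taken 48 hours after seeding, and library preparation used a QuantSeq forward kit, which reads the 3' end of polyadenylated transcripts. Nothing in the labels states whether the replicates were separate cultures or clones. All p-values therefore measure the spread between the 5 libraries alone, and that spread may be technical.

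D-type cyclins bind CDK4 and CDK6, and these kinases phosphorylate the retinoblastoma protein, which then releases E2F transcription factors. E-type cyclins are themselves E2F targets and activate CDK2, which completes this phosphorylation and drives entry into S phase. p27, the product of CDKN1B, inhibits cyclin E-CDK2 and also binds cyclin D complexes, while the product of AKAP12 is a scaffold for protein kinases A and C and has been reported to bind cyclin D1. In colorectal cancer cells CCND1 is known as a gene whose transcription responds to beta-catenin.

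Of the 10 genes, CDKN1B was higher and CCND3 was lower in AKAP12 knockdown with an adjusted p under 0.05. The sequences just upstream of these 2 genes are shown because they are the members that passed the test. They were taken from RefSeq (GRCh38.p14) windows of 250 bases before and 50 bases after each gene's start, and they are cut where the first exon of the deposited annotation begins. They are written 5' to 3' on the strand of the gene, CCND3 from chr6:42048895-42048938 (minus strand) and CDKN1B from chr12:12717118-12717269 (plus strand). Capitals mark the Sp1 box GGGCGG or its reverse complement CCGCCC.
CCND3: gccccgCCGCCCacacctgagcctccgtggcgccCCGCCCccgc
CDKN1B: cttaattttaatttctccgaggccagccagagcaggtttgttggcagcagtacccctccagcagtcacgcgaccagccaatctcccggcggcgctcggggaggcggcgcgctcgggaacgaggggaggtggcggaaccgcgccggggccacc
The stretch upstream of CCND3 (44 bases) held 2 Sp1 boxes and that upstream of CDKN1B (152 bases) held none. In their whole windows, CCND3 had 5 boxes and CDKN1B had 1, at bases 71 to 66 before the RefSeq start. The deposited annotation starts both genes earlier than RefSeq, so the boxes outside the printed stretches lie inside the deposited genes. CCNE1 had 7 boxes in its window, CDK4 had 3 and CDK6 had 3. Of all 35116 RefSeq promoter windows of that length, 45.0% held at least 1 Sp1 box. None of these 5 windows held the other motifs searched on both strands, which were E2F sites (TTTCGCGC or TTTGGCGC), the cAMP response element (TGACGTCA), the TCF/LEF core (CTTTGAT or CTTTGAA) and the TATA box (TATAAA). Of all windows, 1.15% held such an E2F site, 1.85% the cAMP response element, 6.86% the TCF/LEF core and 11.5% the TATA box. CCND1, CCND2, CCNE2 and CDK2 were not matched in that table, and the RB1 window there lies inside the deposited gene, far from its start, and was not used.

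Total counts were 9311026, 6890868 and 7763190 in the knockdown libraries and 4935096 and 8670141 in control libraries 1 and 2. Levels are given in CPM, the counts divided by the library total and scaled with TMM factors, and a count of 0 allows up to 0.307 to 0.402 CPM on that scale in the knockdown libraries, 0.735 CPM in control 1 and 0.344 CPM in control 2 (3 counts). Intervals and limits cover counting error only. Control 1 stood apart: the Pearson correlation of log2 CPM across genes was 0.98 for each pair of knockdown libraries, 0.92 to 0.93 between them and control 2, 0.90 between the controls and 0.79 to 0.81 between the knockdown libraries and control 1. Short RNA genes took 0.644 to 0.933% of counts in the knockdown libraries, 8.65% in control 1 and 1.73% in control 2, and TERT took 4198 to 17172 reads in the knockdown libraries, 366479 in control 1 and 306715 in control 2. The part of these differences in the results was not tested beyond a fit without TERT and short RNA genes, which kept the counts of called members at 1 higher and 1 lower.

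The defining markers of the labelled cells were mixed. The epithelial genes KRT8, KRT18, KRT19 and EPCAM were present in every library, and so was CDX2, at 18.6 to 36.7 CPM. CDH1, VIL1 and CDH17 were low, at 0.307 to 7.59 CPM. CDX1 had 0 reads in every library and KRT20 had 4 reads, all in knockdown 3. The summed level of 10 colon epithelial markers was 1353 to 1609 CPM in the knockdown libraries, 1033 CPM in control 1 and 1542 CPM in control 2. Most of this sum came from KRT18 and KRT19, which had 984 and 388 CPM in control 2. KRT8 was the 1 of 8 tested markers that was higher (log2 fold change 1.78). Markers of other cells were also read in every library: 10 markers of stroma and endothelium summed to 530 to 606 CPM in knockdown, 406 CPM in control 1 and 560 CPM in control 2, with 0 of 9 tested called. The 8 blood markers summed to 89.1 to 104.9 CPM in knockdown, 74.0 CPM in control 1 and 115.7 CPM in control 2. Of these, CD3D alone was called, lower (log2 fold change -1.82), from few reads: 7, 7 and 5 in knockdown and 9 and 27 in the controls. CD3E was at 0.57 and was not called. In bulk RNA, fewer cells of a type and less RNA per cell cannot be told apart, and the part of these markers in the results was not tested.

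AKAP12, the targeted gene, lies at chr6:151239999-151358561 (hg38, plus strand). It was read at 1159, 1063 and 1008 CPM in the knockdown libraries, against 2870 and 1550 CPM in the controls. All 3 knockdown libraries lay below both controls. Its fitted log2 fold change was -1.04 (SE 0.31), with an adjusted p of 0.0513 by edgeR's quasi-likelihood test, and that p was 0.0110 to 0.298 over the alternatives that kept both controls. The log2 fold change was -0.52 without control 1 and -1.42 without control 2.

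Over the 10 cell cycle genes, 1 was higher and 1 was lower in AKAP12 knockdown at an adjusted p under 0.05, which is 20% of them. Over all tested genes 22.6% passed the same threshold, 11.2% higher and 11.4% lower, so the share among the 10 was near the background. With no adjustment, 3 of the 10 had p under 0.05, against 40.5% of all genes. DESeq2 and limma-voom each called 3 of the 10, against 30.7% of all genes by DESeq2 and 21.1% by limma-voom. The knockdown libraries lay above both controls for 4 genes (CCND1, CDK4, CDK6 and CDKN1B), below both for CCND3, and overlapped the controls for the other 5. The share without overlap, 50%, compares with 60.1% of all tested genes, of which 31.6% were above and 28.5% below. The median log2 fold change was 0.17 over the 10 genes and 0.04 over all 14536 genes.

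**Figure D1:**
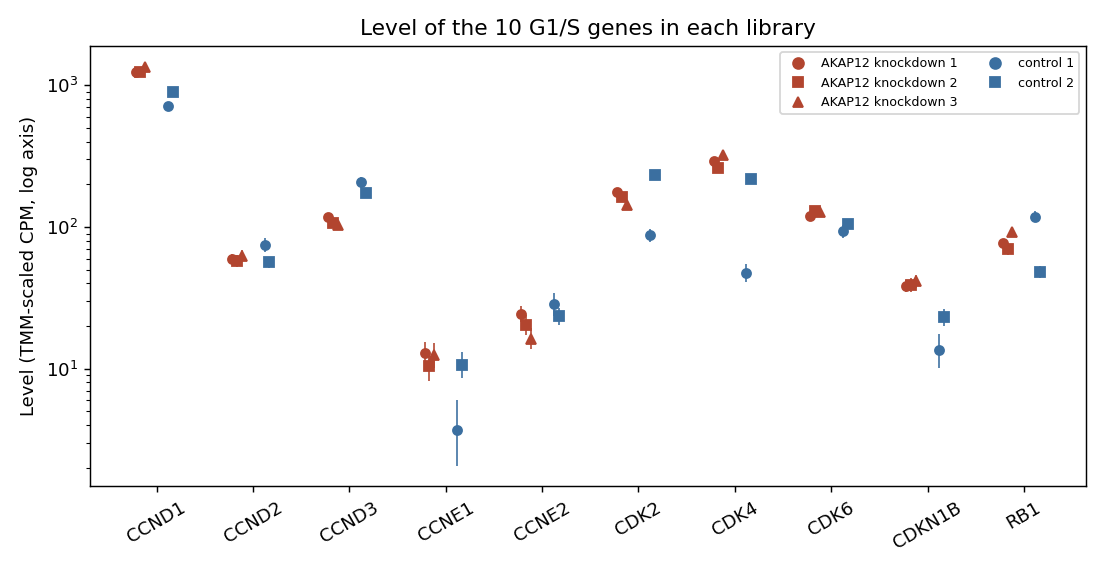
Level of each of the 10 genes in TMM-scaled CPM (log axis) in the 3 AKAP12 knockdown libraries (red) and the 2 control libraries (blue); bars are exact 95% Poisson intervals of the count. The highest knockdown library was at most 1.49-fold the lowest for any of these genes, while the controls lay farther apart than that for CDK4, CCNE1, CDK2, RB1 and CDKN1B; CDKN1B was above and CCND3 below both controls.

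CDKN1B encodes p27, the inhibitor of cyclin E-CDK2 complexes, and lies at chr12:12717270-12722382 (hg38, plus strand). It was read at 38.4, 39.1 and 41.6 CPM in the knockdown libraries, from 375, 292 and 338 reads, against 13.5 and 23.2 CPM in the controls, from 55 and 202 reads. Every knockdown library lay above both controls. The level in knockdown, 39.7 ± 1.66 CPM (SD, n = 3), was 2.95-fold that of control 1 and 1.71-fold that of control 2. CDKN1B rose by 1.10 on the log2 scale (SE 0.28), or 2.14-fold, with an adjusted p of 0.0362 by edgeR's quasi-likelihood test. The log2 fold change was 0.78 without control 1 and 1.55 without control 2. When 1 knockdown library was left out, the log2 fold change was 1.07 to 1.13 and the adjusted p was 0.126 without knockdown 1, 0.128 without knockdown 2 and 0.152 without knockdown 3. Over the alternatives that kept both controls, the adjusted p was 0.00607 to 0.160.

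CDKN1B was also set against the transcripts of the kinases and cyclins that p27 binds. Per 100 CDK2 reads there were 21.8, 24.1 and 29.1 CDKN1B reads in the knockdown libraries, against 15.4 and 9.87 in the controls. Per 100 reads of the 3 D-type cyclins there were 2.72, 2.79 and 2.75 CDKN1B reads in knockdown, against 1.35 and 2.04 in the controls. Both ratios were above both controls in every knockdown library. CDKN1B itself lay above both controls, so these ratios are not separate evidence of its rise. Per 100 reads of CDK4 and CDK6 together there were 9.31, 10.0 and 9.17 CDKN1B reads in knockdown and 9.55 and 7.16 in the controls, and here the groups overlapped.

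The D-type cyclins, the regulatory subunits of CDK4 and CDK6, did not move alike. CCND3 fell, CCND1 lay above both controls without passing the test, and CCND2 overlapped the controls. CCND3 encodes cyclin D3 and lies at chr6:41934933-42048894 (minus strand). It was read at 119, 107 and 103 CPM in knockdown, against 210 and 173 CPM in the controls. All 3 knockdown libraries were below both controls, with 109.6 ± 8.17 CPM in knockdown (SD, n = 3). CCND3 fell by 0.80 on the log2 scale (SE 0.19), which is 1.74-fold lower, with an adjusted p of 0.0319 by edgeR's quasi-likelihood test. Its log2 fold change was -0.66 without control 1 and -0.94 without control 2. The call was lost when counts were scaled by library size only (log2 fold change -0.58, adjusted p 0.0610). It was also lost when knockdown 1, 2 or 3 was left out, where the log2 fold change was -0.86, -0.78 and -0.76 and the adjusted p 0.121, 0.138 and 0.155. Over the alternatives that kept both controls, the adjusted p was 0.00598 to 0.257. Scaling by library size moved the median log2 fold change of all genes to 0.23.

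CCND1 encodes cyclin D1 and lies at chr11:69641105-69654474 (plus strand). CCND1 had 1235, 1240 and 1347 CPM in the knockdown libraries, against 713 and 905 CPM in the controls. The knockdown libraries, at 1274 ± 63.4 CPM (SD, n = 3), were all above both controls. The fitted difference was 0.65 on the log2 scale (SE 0.23), or 1.57-fold, and its adjusted p of 0.0804 by edgeR's quasi-likelihood test missed the threshold. The adjusted p was 0.0236 by DESeq2, 0.0459 by limma-voom and 0.0328 in the authors' deposited table, where the log2 fold change was 0.64. Over the alternatives that kept both controls it was 0.0236 to 0.442. With a single control kept, the log2 fold change was 0.49 without control 1 and 0.83 without control 2.

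CCND2, which encodes cyclin D2, lies at chr12:4273736-4305356 (plus strand). It was read at 60.0, 57.5 and 62.9 CPM in knockdown and at 74.7 and 56.3 CPM in the controls. The knockdown values lay between the controls. Its log2 fold change was -0.12 (SE 0.21) with an adjusted p of 0.689 by edgeR's quasi-likelihood test, and the sign turned with scaling by library size only (0.11) and without control 1 (0.10).

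The make-up of the D-type cyclin reads shows these levels within each library, where the scaling between libraries plays no part. CCND1 made up 87.4% of D-type cyclin reads in knockdown 1 (95% Wilson interval 86.8 to 87.9), 88.3% in knockdown 2 (87.7 to 88.9) and 89.0% in knockdown 3 (88.5 to 89.6). Its share was 71.5% in control 1 (70.1 to 72.9) and 79.8% in control 2 (79.0 to 80.6). CCND1 was the most read D-type cyclin in every library, and its share was higher in each knockdown library than in either control. The difference of the group means was 12.6 percentage points (8.44 without control 1 and 16.7 without control 2), with a two-sided exact permutation p of 0.1, the smallest that 3 libraries against 2 can give, and 0.15 after adjustment over the 3 shares compared. Divided by exon length, the CCND1 shares were 86.0, 87.2 and 88.1% in knockdown and 68.1 and 76.9% in the controls.

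The other side of that share was mostly CCND3. CCND3 made up 8.40, 7.60 and 6.82% of D-type cyclin reads in knockdown, against 21.0 and 15.2% in the controls. CCND2 made up 4.24, 4.09 and 4.16% in knockdown, against 7.49 and 4.97% in the controls. Both shares were lower in every knockdown library than in either control. There were 10.4, 11.6 and 13.1 CCND1 reads for each CCND3 read in knockdown and 3.40 and 5.23 in the controls. The summed level of the 3 D-type cyclins was 1414, 1404 and 1513 CPM in knockdown and 997 and 1134 CPM in the controls.

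**Figure D2:**
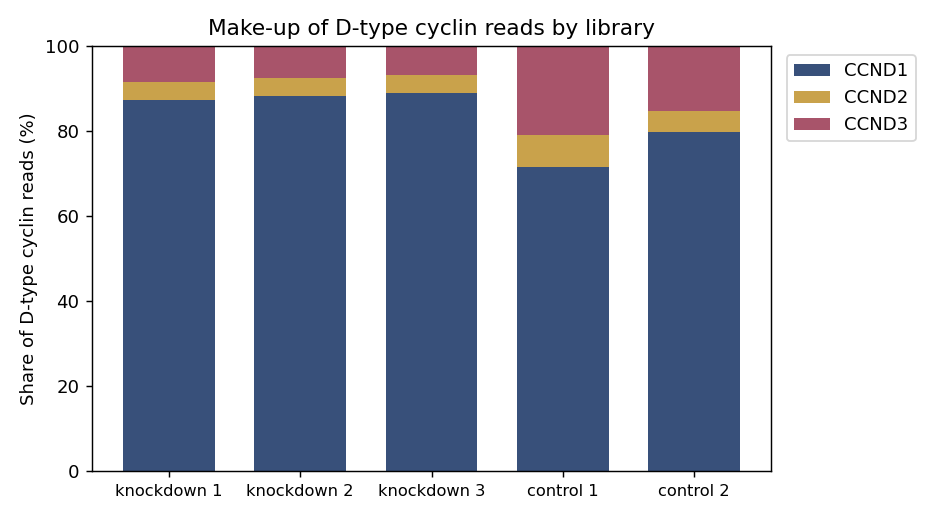
Percentage of D-type cyclin reads that came from CCND1, CCND2 and CCND3 in each AKAP12 knockdown and control library. CCND1 took 87.4 to 89.0% in the knockdown libraries and 71.5 and 79.8% in the controls, and CCND3 took 6.82 to 8.40% in knockdown and 21.0 and 15.2% in the controls.

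CDK4 and CDK6, the catalytic partners of the D-type cyclins, were both above the controls in every knockdown library, and neither passed the test. CDK4 lies at chr12:57747727-57752447 (minus strand). CDK4 had 292, 261 and 325 CPM in knockdown and 47.8 and 219 CPM in the controls. The controls differed 4.59-fold from each other, while the highest knockdown library was 1.24-fold the lowest. The log2 fold change of CDK4 was 1.13 (SE 0.57), with an adjusted p of 0.185 by edgeR's quasi-likelihood test. The log2 fold change was 0.42 without control 1 and 2.61 without control 2, so the size of the difference rested on which control was kept. CDK4 shares 517 exon bases with TSPAN31 on the other strand, and no strand option was used in counting. Reads assigned to TSPAN31 could account for at most 7.19, 10.1 and 7.88% of CDK4 reads in knockdown and 36.9 and 9.26% in controls 1 and 2.

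CDK6 lies at chr7:92604921-92836627 (minus strand). Its level was 120, 130 and 129 CPM in knockdown, at 126 ± 5.14 CPM (SD, n = 3), against 93.3 and 104 CPM in the controls. The groups did not overlap, and the gap was small: the log2 fold change was 0.35 (SE 0.18) with an adjusted p of 0.200 by edgeR's quasi-likelihood test. The log2 fold change was 0.27 without control 1 and 0.43 without control 2. CDK4 made up 70.8, 66.8 and 71.6% of the reads of both kinases in knockdown and 33.9 and 67.7% in the controls. The groups overlapped in this share, which differed by 19.0 percentage points with a two-sided exact permutation p of 0.2, also 0.2 after adjustment over the 3 shares. That difference was 2.04 points without control 1, 35.9 points without control 2 and 9.34 points per exon length. The 2 kinases summed to 412, 390 and 453 CPM in knockdown and 141 and 324 CPM in the controls.

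The E-type cyclins, the partners of CDK2, had the lowest mean CPM per kilobase of exon of the 10 genes in knockdown, and neither passed the test. CCNE1 lies at chr19:29811994-29824308 (plus strand) and was read at 13.0, 10.4 and 12.4 CPM in knockdown, against 3.67 and 10.7 CPM in the controls. Only control 1, with 15 reads, was low; control 2, with 93 reads, lay inside the knockdown range. The log2 fold change was 0.68 (SE 0.44) with an adjusted p of 0.283 by edgeR's quasi-likelihood test. That change was 0.17 without control 1 and 1.70 without control 2.

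CCNE2 lies on chromosome 8 from 94880225 to 94895254 (minus strand). CCNE2 was read at 24.4, 20.5 and 16.4 CPM in knockdown and at 28.7 and 23.4 CPM in the controls, and the groups overlapped. Its log2 fold change was -0.34 (SE 0.26) with an adjusted p of 0.348 by edgeR's quasi-likelihood test. CCNE2 shares 269 exon bases with INTS8 on the other strand. Reads assigned to INTS8 could account for up to 81.5, 80.4 and 100% of CCNE2 reads in knockdown and 42.7 and 29.4% in the controls, so its level is uncertain.

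CCNE1 made up 34.8, 33.8 and 43.2% of E-type cyclin reads in knockdown and 11.4 and 31.3% in the controls. All 3 knockdown shares were above both controls, by 15.9 percentage points between the means, with a two-sided exact permutation p of 0.1 and 0.15 after adjustment over the 3 shares. The difference was 5.93 points without control 1 and 25.9 points without control 2, and the share rests on CCNE2 reads that INTS8 could account for as given above. The sum of both E-type cyclins was 37.4, 30.9 and 28.8 CPM in knockdown and 32.3 and 34.1 CPM in the controls, and it overlapped.

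CDK2, the kinase of cyclin E, and RB1, whose product the G1 kinases phosphorylate, lay between the controls in every knockdown library. CDK2 lies at chr12:55966769-55972789 (plus strand) and was read at 176, 163 and 143 CPM in knockdown, against 87.7 and 235 CPM in the controls. RB1 lies at chr13:48303747-48481890 (plus strand) and was read at 77.1, 69.9 and 92.3 CPM in knockdown, against 118 and 47.9 CPM in the controls. CDK2 was low in control 1 and high in control 2, and RB1 the other way round. The log2 fold change of CDK2 was -0.01 (SE 0.39, adjusted p 0.988) and that of RB1 was -0.05 (SE 0.38, adjusted p 0.930) by edgeR's quasi-likelihood test. CDK2 was at -0.54 without control 1 and at 0.87 without control 2. RB1 was at 0.74 without control 1 and at -0.57 without control 2. No direction can be given for either gene, since each control alone gave a change of the opposite sign.

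**Figure D3:**
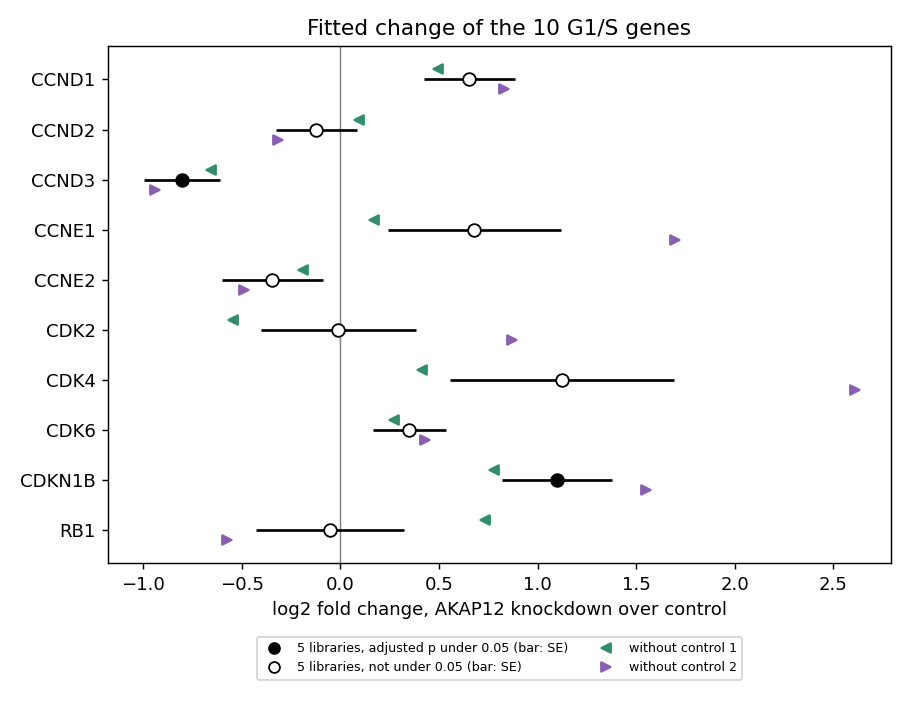
Fitted log2 fold change of AKAP12 knockdown over control for the 10 genes (circles, bars are SE; filled where the adjusted p was under 0.05), with the values without control 1 and without control 2 as triangles. CDK2, RB1 and CCND2 turned sign between the single controls, and CDK4 spread from 0.42 to 2.61; CCND3 stayed below 0 and CDKN1B above 0 with either control.

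For 9 of the 10 genes the ratio of the higher to the lower control was larger than that of the highest to the lowest knockdown library, CCNE2 being the exception. The widest such ratios were 4.59 for CDK4, 2.90 for CCNE1, 2.68 for CDK2, 2.47 for RB1 and 1.72 for CDKN1B. The same ratio over the knockdown libraries was 1.08 to 1.49. How many of all genes had the wider spread in the controls was not counted. Over all tested genes, log2 CPM correlated at 0.90 between the controls and at 0.98 for each pair of knockdown libraries. In the authors' deposited table, 3 of the 10 genes had an adjusted p under 0.05, against 25.3% of the 16104 genes with an adjusted p there. They were CDKN1B (log2 fold change 1.09, adjusted p 0.00914), CCND3 (-0.82, 0.0103) and CCND1. All 10 genes had the same sign there as in the edgeR fit.

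Between genes, levels were compared per kilobase of exon. The kit reads 3' ends, so this scale divides by a length that the reads do not cover evenly, and it can place long genes too low. CDK6, with 11762 exon bases, had 126 CPM in knockdown, above CCND3 (110 CPM), RB1 (79.8 CPM) and CDKN1B (39.7 CPM). Per kilobase it stood below all 3, so the order below holds for this scale only. In knockdown the mean CPM per kilobase was 297.0 for CCND1, 146 for CDK4, 69.8 for CDK2, 34.7 for CCND3, 16.7 for RB1, 15.7 for CDKN1B, 10.7 for CDK6, 9.22 for CCND2, 7.48 for CCNE2 and 6.14 for CCNE1. Neighbours in that order overlapped between libraries for RB1 with CDKN1B, CCND2 with CCNE2, and CCNE2 with CCNE1. In the controls the mean CPM per kilobase was 189 for CCND1, 70.0 for CDK2, 66.7 for CDK4, 60.5 for CCND3, 17.4 for RB1, 10.0 for CCND2, 9.55 for CCNE2, 8.41 for CDK6, 7.26 for CDKN1B and 3.68 for CCNE1. Neighbours in that order overlapped between the controls, except CCND1 with CDK2 and CCND3 with RB1. CCND1 led and CCNE1 was last on this scale in the means of both groups, and CDKN1B stood sixth in knockdown and ninth in the controls.

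The 3 genes whose pattern over the 5 libraries lay nearest to that of CCND1 were KIAA1919, ARHGAP32 and PMS1. Their root mean square distance of centred log2 CPM was 0.0282, 0.0284 and 0.0313, and the median over 14535 genes was 0.552. They were picked as the smallest distances, so lying below the median follows from the choice. ARHGAP32 was read at 43.1, 43.0 and 45.4 CPM in knockdown and at 24.3 and 32.2 CPM in the controls. Among the other 9 cell cycle genes, CDK6 was nearest to CCND1 at 0.169, ranked 717 of all genes, and CDKN1B followed at 0.276.

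The rest of the G1/S network was read from a list of 49 genes, all of which were tested. In AKAP12 knockdown 12 were higher and 5 lower, which is 34.7% called. Over all genes it was 22.6%, with 11.2% higher and 11.4% lower. The median log2 fold change was 0.39 on the list and 0.04 over all genes. The list was chosen with earlier results of these data known, and no set test was run. These shares therefore cannot be read as an enrichment of the network. By role, which held 2 to 11 genes each, 0 to 50% were called. Without any 1 of the knockdown libraries the fit called 0 of the 49 and 0 of all genes. Adjusted p-values in the paragraphs on this list are from edgeR's quasi-likelihood test unless another tool is named.

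Among the INK4 inhibitors, which bind CDK4 and CDK6 directly, 2 of 4 were higher and none was lower. CDKN2A, which encodes p16 and ARF, was read at 45.6, 41.3 and 42.9 CPM in knockdown and at 2.45 and 5.05 CPM in the controls. It rose by 3.45 on the log2 scale (SE 0.34, adjusted p 0.0124), and by 3.10 without control 1 and 4.13 without control 2. CDKN2D, which encodes p19, was read at 6.14, 8.84 and 10.1 CPM in knockdown and at 0.245 and 1.72 CPM in the controls, from 1 and 15 reads. CDKN2D rose by 2.85 (SE 0.62, adjusted p 0.0261), and by 2.26 without control 1. Against control 1 alone its ratio was 33.5, with a counting interval of 5.94 to 1328. CDKN2B and CDKN2C did not pass, with log2 fold changes of 1.17 and -0.09. The other CIP/KIP inhibitors CDKN1A, which encodes p21, and CDKN1C, which encodes p57, did not pass either, at -0.06 and 0.54.

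Among the E2F and DP factors, 2 of 10 were higher and 2 were lower. TFDP1, the DP1 partner of E2F proteins, rose by 0.89 (SE 0.20, adjusted p 0.0276), and E2F4, known mainly as a repressor bound to pocket proteins, rose by 1.32 (SE 0.34, adjusted p 0.0372). E2F4 was at 1.83 without control 1 and 0.90 without control 2. E2F1, an activator of S phase genes, was read at 79.1, 66.7 and 59.5 CPM in knockdown and at 98.5 and 144 CPM in the controls. E2F1 fell by 0.83 (adjusted p 0.04999) and E2F8, an atypical repressor, fell by 0.77 (adjusted p 0.0488); these 2 were named after their values were seen. Both calls were lost with scaling by library size only (adjusted p 0.151 and 0.0979) and with no filter (0.0573 and 0.0747), and that of E2F8 also with limma-voom (0.0569). E2F1 was at -1.07 without control 1 and -0.53 without control 2. The pocket proteins RBL1 and RBL2, relatives of RB1, did not pass, at -0.19 and -0.12.

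Of the CDK-activating kinase, which phosphorylates the cell cycle kinases on their activation loop, CDK7 was called and CCNH and MNAT1 were not. CDK7 was read at 21.1, 20.2 and 21.1 CPM in knockdown, against 9.31 and 8.49 CPM in the controls. CDK7 rose by 1.23 (SE 0.23, adjusted p 0.0210), and here the controls lay close together. CCNH was at 0.77 and MNAT1 at 0.53, and both passed with library size only (adjusted p 0.0427 and 0.0400). That scaling moved the median log2 fold change of all genes up to 0.23, and no other fit with both controls called either gene. Neither CDC25A, the phosphatase that activates CDK2, nor CCNA2, the S phase cyclin, passed by edgeR, with log2 fold changes of 1.48 (adjusted p 0.0563) and 0.42. CDC25A passed under RLE scaling (0.0492), by DESeq2 (0.00868), by limma-voom (0.0398) and with no filter (0.0272). It was at 0.90 without control 1 and 2.59 without control 2.

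Of 9 genes of cyclin and inhibitor turnover, 2 were higher, which is 22.2% called and near the 22.6% of all genes. SKP2, the F-box protein that targets p27 for degradation, was read at 41.9, 33.3 and 34.4 CPM in knockdown, against 6.86 and 11.8 CPM in the controls. SKP2 rose by 1.94 (SE 0.31, adjusted p 0.0163), so it and CDKN1B were both higher at the RNA level. FBXO4, an F-box protein reported to act on cyclin D1, was read at 10.0, 10.3 and 12.3 CPM in knockdown and at 0.980 and 4.36 CPM in the controls, with 4 reads in control 1. FBXO4 rose by 1.89 (SE 0.53, adjusted p 0.0448), by 1.32 without control 1 and by 3.44 without control 2, and its call was lost with library size only (adjusted p 0.0579). CKS1B, the cofactor of SKP2 for p27, was at 192, 194 and 158 CPM in knockdown and at 2.94 and 69.8 CPM in the controls, and did not pass (adjusted p 0.130). Its log2 fold change was 1.38 without control 1 and 5.94 without control 2. AMBRA1, an adaptor for the degradation of D-type cyclins, was at -0.86 and did not pass (adjusted p 0.0790).

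Of 6 transcription inputs to cyclin D1, 2 were higher and 1 was lower. CTNNB1, which encodes beta-catenin, was read at 401, 419 and 423 CPM in knockdown, against 41.4 and 142 CPM in the controls. It rose by 2.16 (SE 0.50, adjusted p 0.0290), by 1.54 without control 1 and by 3.32 without control 2. FOSL1, an AP-1 subunit, rose by 1.03 (SE 0.24, adjusted p 0.0294). TCF7L2, the DNA-binding partner of beta-catenin in the colon, was read at 69.2, 64.4 and 72.7 CPM in knockdown and at 172 and 109 CPM in the controls, and fell by 1.03 (adjusted p 0.0295); it was named after its value was seen. TCF7L2 was at -0.67 without control 1 and -1.32 without control 2. MYC was at 1.15 (adjusted p 0.0813), JUN at -0.42 and CREB1 at -0.20, and none of these passed. MYC passed with library size only (0.0442), limma-voom (0.0448) and no filter (0.0416). It was at 1.97 without control 1 and 0.60 without control 2.

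Of 11 E2F target genes of S phase, 3 were higher and 2 lower. Subunits of the MCM replicative helicase went both ways. MCM2 was read at 129, 112 and 117 CPM in knockdown, against 12.7 and 39.6 CPM in the controls, and rose by 2.16 (SE 0.45, adjusted p 0.0243). MCM5 was read at 97.5, 80.0 and 90.2 CPM in knockdown, against 331 and 181 CPM in the controls, and fell by 1.52 (SE 0.28, adjusted p 0.0207). Left with 1 control, MCM2 was at 1.59 without control 1 and 3.22 without control 2. The 3 further calls, named after their values were seen, were MCM6 at 1.29 (adjusted p 0.0271), MCM4 at -1.05 (0.0431) and RRM2, a subunit of ribonucleotide reductase, at 1.31 (0.0285). MCM5 was at -1.02 and MCM4 at -0.54 without control 1, and without control 2 they were at -1.90 and -1.43. The MCM4 call was lost with library size only (adjusted p 0.0590).

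**Figure D4:**
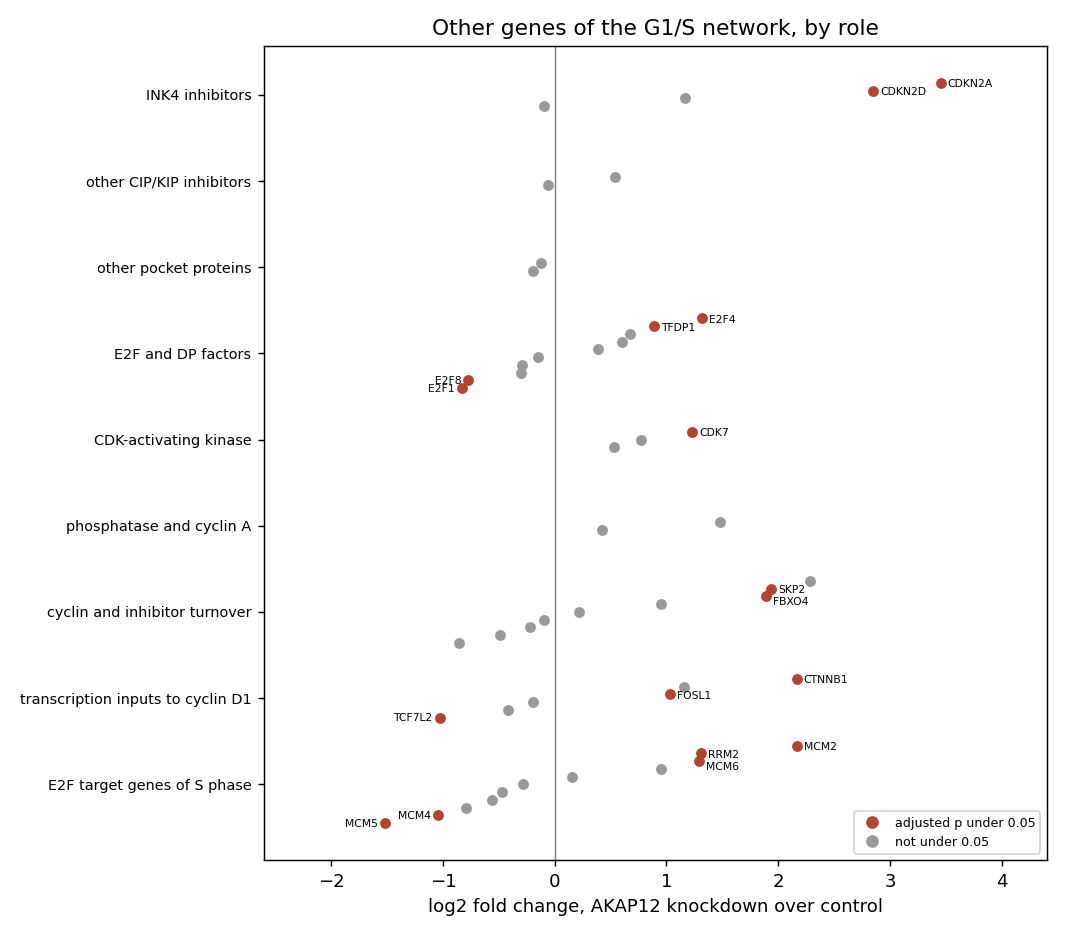
Log2 fold change of AKAP12 knockdown over control for 49 further genes of the G1/S network, 1 point per gene, grouped by role; red points had an adjusted p under 0.05. Of the 49 genes 12 were higher and 5 lower, and the E2F and DP factors, the cyclin D1 inputs and the S phase genes held calls on both sides of 0.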

How the data were processed

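RNA of 3 AKAP12 knockdown and 2 control libraries was read by QuantSeq 3' end sequencing. The deposited counts are whole reads per gene. Per the file headers, featureCounts 1.6.2 was run on exons summed by gene, a read over several genes adding to each of them, and without a strand setting. STAR 2.7, featureCounts 1.6, DESeq2 1.22 and hg38 are named in the submitters' processing notes. The columns of the authors' deposited table are the mean signal, log2 fold change with standard error, test statistic (a score) and p-values, per its header. It names no model and no direction. Its log2 fold changes correlated with those fitted here (r = 0.999 over 14536 genes), which gave the direction.

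Genes were filtered with filterByExpr (minimum count 10), scaled with TMM factors and compared without covariates by edgeR's quasi-likelihood test (edgeR 4.0.16 in R 4.3.3, two-sided), with Benjamini-Hochberg adjustment over all 14536 genes and a threshold of 0.05. Fold changes are knockdown over control. SE is the size of the log2 fold change over the root of F. Shares were compared by exact permutation of the group means (scipy 1.17.1), which with 3 libraries against 2 cannot go below 0.1. The fit was tested on simulated counts in which all libraries varied alike. The controls here differed more than the knockdown libraries, so that test does not cover their spread.

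The members and lists were chosen with earlier results of these data known. Named genes are AKAP12, the 10 members, up to 2 called genes per role of the 49-gene list by smallest p, and the 3 genes nearest to CCND1; others are said to be chosen after their values were seen, as were the genes of that list given without a call. Alternatives were DESeq2 1.42.0, limma-voom (limma 3.58.1), scaling by RLE or by library size only, filtering at 5 CPM in 2 libraries or not at all, a block for the replicate number, leaving out each library, and, chosen after seeing the data, removal of TERT and short RNA genes.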

Additional observations from a re-analysis of the deposited data

How the results depend on the processing

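The counts of called members kept 1 higher and 1 lower under RLE scaling, no filter, a stricter filter and removal of TERT and short RNA genes, the last chosen after seeing the data. DESeq2 and limma-voom each called 2 higher members and 1 lower (30.7% and 21.1% of all genes), and scaling by library size only called 0 lower members by edgeR, with 4 of 10 at an unadjusted p under 0.05 (38.2% of all genes). Library size only also called 982 genes lower against 1658, and the split moved to 1668 higher against 982 lower. The cause was not tested. Leaving out 1 library gave 0 to 6 members called higher, 0 to 2 called lower, 0 to 4625 of all genes higher, 0 to 4186 lower and 0 to 34 of the 49 network genes called. The zeros came from edgeR without any 1 knockdown library, where 3774 to 4109 genes and 2 members had an unadjusted p under 0.05; those fits hold fewer samples. Fits with 1 control assume that it varies like the knockdown libraries. The log2 fold change turned sign for CCND2 with library size only (0.11), for CDK2 with library size only (0.14), limma-voom (0.12) and no filter (0.0085), and for RB1 with library size only (0.21) and limma-voom (0.13). With 1 library left out it was -0.32 to 0.10 for CCND2, -0.54 to 0.87 for CDK2 and -0.57 to 0.74 for RB1. The 3 shares kept their direction with 1 library left out and per exon length, but the difference in the CDK4 share was 2.04 points without control 1. Control 1, with 4935096 counts, limits low genes such as CCNE1.

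The labels give both groups replicate numbers 1 and 2. Same-numbered libraries did not deviate together from their group means (correlations -0.053 and -0.081 over genes). With 2 controls these deviations mirror each other, so the check cannot tell whether same-numbered libraries were paired. With the replicate block, edgeR called 0 members higher and 0 lower, and 2 of the 10 had an unadjusted p under 0.05. It called 185 of all genes higher and 25 lower, which is 1.44%, and 22.8% (3320) had an unadjusted p under 0.05. Of the 49 network genes it called 1, and CDK2 was at 0.23. The adjusted p was 0.257 for CCND3 (log2 fold change -0.76) and 0.160 for CDKN1B (1.12) in that fit.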
